A study of Caenorhabditis elegans with 6 samples.

Results

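The furrow collagens of the nematode Caenorhabditis elegans are the products of 6 genes, dpy-2, dpy-3, dpy-7, dpy-8, dpy-9 and dpy-10, and each was matched by its gene name to 1 of the 46950 rows of the deposited expression table. Their levels were followed in 3 THz libraries, made from worms treated with terahertz radiation, which the series title gives as 0.26 THz, and in 3 Control libraries, made from worms labelled as controls. All 6 libraries hold polyadenylated RNA of the whole body, and no strain, mutant allele, age, power or exposure time is stated in the labels. The labels also do not state whether replicates of a group were separate cultures, so the p-values below speak for the scatter of these libraries alone, part of which may be technical.

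The worm's cuticle is a collagen matrix that the underlying epidermis secretes anew at each moult, and its surface is folded into rings, the annuli, that are separated by shallow circumferential furrows. The 6 furrow collagens depend on each other: loss of any of them removes the furrows and leaves the worm dumpy, that is short and stout. Their transcripts are known to come in a pulse early in the making of each cuticle, before those of many other cuticle collagens. In C. elegans, worms that lack furrows also switch on osmotic, antimicrobial and detoxification genes in the epidermis.

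The genes lie on chromosomes II, IV and X and carry few exons. In the deposited table, on build WBcel235, dpy-10 (chromosome II, 6710156 to 6711866) and dpy-2 (chromosome II, 6714292 to 6715971) lie 2425 bases apart, and the Ensembl annotation of the same build puts them on opposite strands with 5 exons each. The other genes are dpy-3 (chromosome X, 2144605 to 2145647, 2 exons), dpy-7 (chromosome X, 7536417 to 7537792, 2 exons), dpy-8 (chromosome X, 5148804 to 5150476, 4 exons) and dpy-9 (chromosome IV, 257384 to 259204, 4 exons). The locus of dpy-10 overlaps T14B4.19 on the same strand, and that of dpy-8 overlaps C31H2.14 on the opposite strand, so reads in those stretches are uncertain. T14B4.19 measured 1.27, 4.08 and 1.59 FPKM in the THz libraries, against 5.86, 1.36 and 6.41 FPKM in the Control libraries, and C31H2.14 measured at most 2.345 FPKM in any library. FPKM counts fragments per kilobase of gene, scaled to the depth of the library. It thus takes gene length and depth into account, but not differences in composition between libraries.

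Among the libraries, the furrow collagens separated the Control samples from each other more than they separated THz from Control. The sum of the 6 genes was 43.0, 63.0 and 59.0 FPKM in THz 1, THz 2 and THz 3, against 129.1, 27.04 and 170.8 FPKM in Control 1, Control 2 and Control 3. The THz libraries lay together, between a low Control 2 and the 2 high libraries Control 1 and Control 3. In RNA from whole worms, fewer epidermal cells at work and less RNA per cell cannot be told apart. Over the 12174 genes tested, which reached 1 FPKM in 3 or more libraries, Pearson correlations of log2(FPKM + 1) were 0.989 to 0.992 within THz and 0.946 to 0.984 within Control, and the lowest was between Control 2 and Control 3. The recovered depth was 19079440 to 21977418 counted reads per library.

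The most abundant furrow collagen gene in most libraries was dpy-10, whose dominant roller allele serves as a visible marker in worm genome editing. It measured 13.4, 19.3 and 18.3 FPKM in the THz libraries, against 35.8, 8.95 and 46.4 FPKM in the Control libraries. Its mean was 17.02 ± 3.18 FPKM in THz and 30.4 ± 19.3 FPKM in Control worms (SD, n = 3 each). The THz values fell inside the Control range because Control 2 was the lowest of all 6 libraries.

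Control 2 was also lowest and Control 1 and Control 3 highest for dpy-3, which measured 11.5, 14.9 and 17.4 FPKM in the THz libraries, against 41.0, 7.07 and 52.9 FPKM in the Control libraries. Its means were 14.6 ± 2.97 FPKM in THz and 33.7 ± 23.8 FPKM in Control worms (SD, n = 3 each). For dpy-7, whose protein has been localized to the furrows and whose promoter is widely used to drive epidermal transgenes, the THz libraries measured 8.71, 14.5 and 11.7 FPKM, against 29.1, 4.52 and 41.8 FPKM in the Control libraries. Its means were 11.7 ± 2.91 FPKM in THz and 25.1 ± 18.96 FPKM in Control worms. In dpy-2, the neighbour of dpy-10, the THz libraries measured 7.20, 9.67 and 7.88 FPKM, against 19.1, 3.23 and 25.02 FPKM in the Control libraries. Its means were 8.25 ± 1.28 FPKM in THz and 15.8 ± 11.3 FPKM in Control worms. In all 4 of these genes Control 2 was the lowest library, Control 1 and Control 3 were the highest, and every THz library lay between them.

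The remaining pair was expressed at low levels. The dpy-9 gene measured 1.97, 3.08 and 3.17 FPKM in the THz libraries, against 2.55, 3.18 and 3.53 FPKM in the Control libraries, with means of 2.74 ± 0.667 and 3.09 ± 0.498 FPKM (SD, n = 3 each). Here Control 2 was not low, and the groups overlapped almost fully. The dpy-8 gene measured 0.242, 1.39 and 0.540 FPKM in the THz libraries, against 1.46, 0.0942 and 1.20 FPKM in the Control libraries. Its values rest on 7, 41 and 17 recovered reads in the THz libraries and on 45, 3 and 40 in the Control libraries, so counting error is large. It passed the filter on low values through 3 libraries, THz 2, Control 1 and Control 3.

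**Figure D1:**
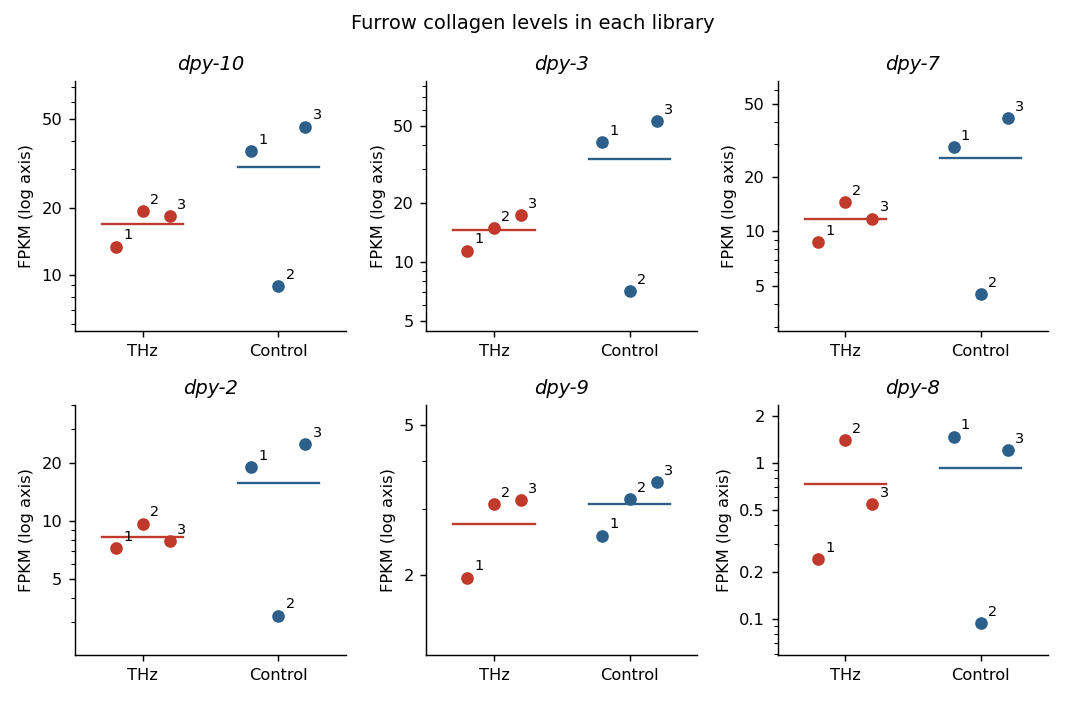
Level of each furrow collagen gene in FPKM on a log axis, with the 3 THz libraries left and the 3 Control libraries right; numbers are replicates and bars are group means. For dpy-10, dpy-3, dpy-7 and dpy-2 the THz libraries sit between Control 2, which is lowest, and Control 1 and Control 3, which are highest; dpy-9 shows no such spread.

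The order of the members within a library was nearly fixed. In every library dpy-7 followed dpy-10 and dpy-3, and dpy-2, dpy-9 and dpy-8 came after it in that order, while the top place changed between dpy-10 and dpy-3. The dpy-10 gene came first in the 3 THz libraries and in Control 2, and dpy-3 in Control 1 and Control 3, so these neighbours in the order do not differ beyond their spread. As a share of the summed FPKM, dpy-10 made up 30.98% ± 0.23 in THz and 29.3% ± 3.26 in Control worms (SD, n = 3 each). For dpy-3 the share was 26.6% ± 2.86 in THz and 29.6% ± 3.06 in Control worms. The shares of dpy-7 (21.1% ± 1.74 and 21.2% ± 4.03) and dpy-2 (15.2% ± 1.71 and 13.8% ± 1.6) also differed by less than the spread between libraries. The share that moved most with the library was that of dpy-9, which was 4.58%, 4.90% and 5.36% in the THz libraries, against 1.97%, 11.8% and 2.07% in the Control libraries. Its own level changed little, so its share was highest where the other members were lowest.

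**Figure D2:**
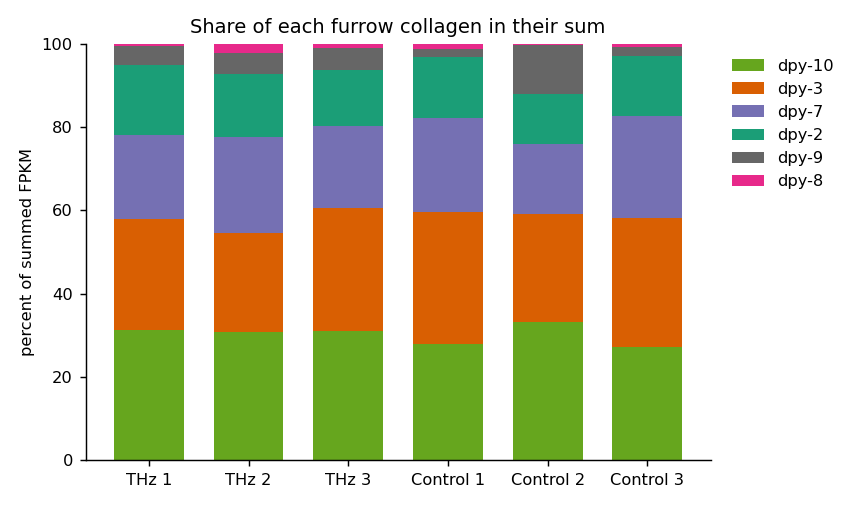
Share of each gene, in percent, in the summed FPKM of the 6 furrow collagens, with 1 bar per library. The 4 abundant genes keep similar shares, while dpy-9 takes 11.8% in Control 2 and 1.97% to 5.36% elsewhere.

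The design sets THz against Control worms, which asks whether these genes differ after the exposure, and no furrow collagen passed the test. All 6 had a negative fitted difference, and none was called by limma at an adjusted p under 0.05, nor at an unadjusted p under 0.05. Over all genes tested 0.0% were called, and 714 genes had an unadjusted p under 0.05. A voom fit on the recovered reads also called 0 genes. The median log2 difference of the 6 genes was -0.52, against 0.00 over all genes tested, and without Control 2 that of the 6 genes was -1.27. For the fit without Control 2, no median or share lower over all genes tested is given, here or for the lists below. With all 6 libraries the largest log2 difference was that of dpy-3, at -0.78 ± 0.65 (SE). Its 95% interval ran from -2.28 to 0.73, with an adjusted p of 0.832 (limma, n = 3 each). The log2 difference was -0.63 ± 0.69 for dpy-7, -0.54 ± 0.53 for dpy-10 and -0.50 ± 0.61 for dpy-2. For dpy-9 it was -0.14 ± 0.21 and for dpy-8 it was -0.12 ± 0.37. The intervals of dpy-3 and dpy-7 reach below -2, so the test with 6 libraries leaves a wide range of differences possible. No member had groups that did not overlap, where 13.8% of all genes tested had none.

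The result turned on Control 2, which no label marks as different from the other controls. Without it, 4 of the 6 genes were called, all lower after THz, where 1.83% of all genes tested were called lower. Then dpy-3 fell by 1.63 ± 0.17 on the log2 scale (adjusted p = 0.00596, limma with 3 THz and 2 Control libraries), dpy-7 fell by 1.53 ± 0.21 (adjusted p = 0.0143), dpy-2 fell by 1.31 ± 0.17 (adjusted p = 0.0115) and dpy-10 fell by 1.23 ± 0.17 (adjusted p = 0.0143). For dpy-8 (-0.49, adjusted p = 0.422) and dpy-9 (-0.12, adjusted p = 0.832) the test was not passed. All 3 THz libraries lay below both Control 1 and Control 3 in the 4 called genes, as they did in 19.1% of all genes tested. Without Control 3 the differences came close to 0, at -0.26 for dpy-3, -0.10 for dpy-10, -0.05 for dpy-7 and -0.0027 for dpy-2. Leaving out any library other than Control 2 gave no call. With limma's library weights, which were 0.180 for Control 2 and 0.293 for Control 3, against 4.29 for Control 1, the fit rested mostly on Control 1 among the controls, and the same 4 genes were called lower, where 11.7% of all genes tested were.

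**Figure D3:**
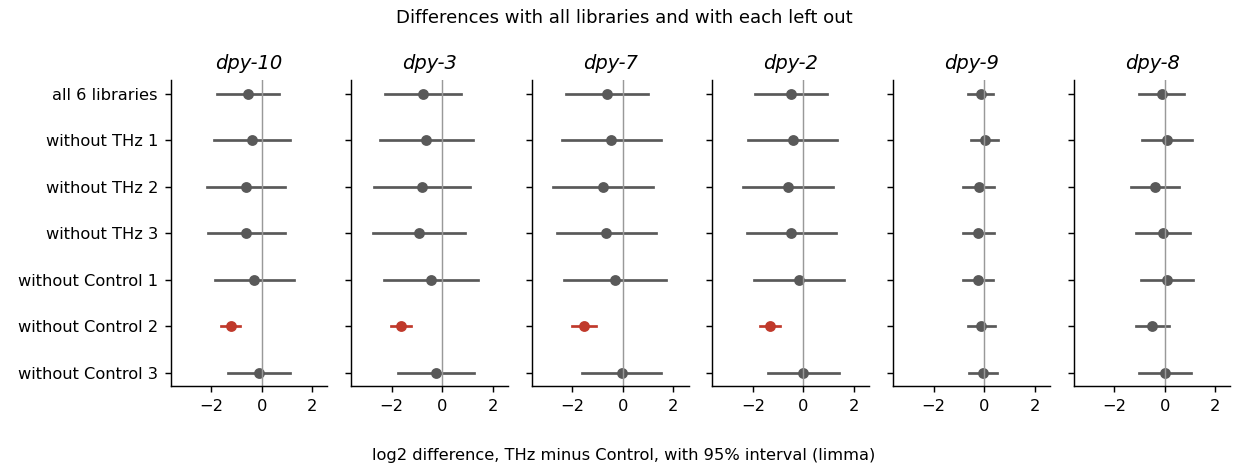
Fitted log2 difference of each furrow collagen gene, THz minus Control, with its 95% interval from limma, for all 6 libraries and with each library left out; red marks an adjusted p under 0.05. Red intervals appear in the row without Control 2, for dpy-10, dpy-3, dpy-7 and dpy-2.

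The span between the Control libraries was wide at 5 of the 6 members. A log2 difference above 1 between Control 3 and Control 2 was found at these 5, where 8.15% of all genes tested had one. In FPKM, the ratio of Control 3 to Control 2 was 9.24 for dpy-7, with a 95% counting interval of 7.62 to 11.3. It was 7.75 (6.22 to 9.76) for dpy-2, 7.48 (6.28 to 8.97) for dpy-3 and 5.18 (4.52 to 5.97) for dpy-10. The ratio for dpy-8 was 12.8 with a wide interval of 4.07 to 64.5, and that of dpy-9 was 1.11, with an interval of 0.766 to 1.61 that includes no change. These intervals cover counting error between 2 libraries and no other variation. The SD of log2(FPKM + 1) in THz and Control libraries was 0.34 and 1.58 for dpy-7, 0.28 and 1.49 for dpy-3, 0.20 and 1.42 for dpy-2, and 0.27 and 1.21 for dpy-10. The medians over all genes tested were 0.11 in THz and 0.21 in Control libraries. The Control SD of these 4 genes lay between percentile 98.7 and percentile 99.6 of all genes tested, while that of dpy-9, at 0.18, lay at percentile 41.2.

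Over the 6 libraries dpy-2, dpy-3, dpy-7 and dpy-10 went up and down together. Their pairwise Pearson correlations of log2(FPKM + 1) ran from 0.979 to 0.998, as a description over 6 libraries that share the same split of the controls. The sparse dpy-8 correlated with these genes at 0.789 to 0.858. The dpy-9 gene stood apart, with correlations of 0.138 to 0.254 with the other 5 members. The mean centred profile of the members was -0.54, 0.02 and -0.16 in the THz libraries, against 0.68, -0.97 and 0.97 in the Control libraries, and 2.92% of all genes tested correlated with it at 0.95 or more.

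The 8 genes outside the family with the most similar profile were abu-14, R02F11.1, wrt-2, cut-2, col-165, dpy-18, WBGene00016305 and Y47D7A.13, with correlations of 0.997 to 0.999 over the 6 libraries. The abu-14 gene, named for its activation when the unfolded protein response is blocked, measured 6.32, 13.3 and 11.2 FPKM in the THz libraries, against 37.2, 2.94 and 57.6 FPKM in the Control libraries. The cuticle collagen gene col-165 spanned a wider range, with 5.93, 18.97 and 14.2 FPKM in the THz libraries, against 62.2, 2.599 and 82.8 FPKM in the Control libraries. The cuticlin gene cut-2, for a component of the insoluble cuticle layer, measured 6.07, 17.5 and 12.2 FPKM in the THz libraries, against 50.2, 2.18 and 69.4 FPKM in the Control libraries. The warthog gene wrt-2, of the hedgehog-related family, measured 1.76, 3.99 and 3.09 FPKM in THz, against 8.91, 0.726 and 14.4 FPKM in Control libraries. These genes showed the library order of the abundant furrow collagens with a larger amplitude. The profile of dpy-18, a catalytic subunit of the prolyl 4-hydroxylase that modifies collagen chains, had the same shape but a small amplitude, at 27.7, 30.6 and 30.6 FPKM in THz, against 36.1, 24.7 and 39.0 FPKM in Control libraries.

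Other collagens that shape the body differed in their profiles. Of 15 listed, 13 were tested and 0 were called with all 6 libraries, with 8 lower and 5 higher and a median log2 difference of -0.19. Without Control 2 that median was -0.59, with 10 of the 13 lower. A correlation of at least 0.9 with the furrow profile was found for 5 of the 13, against 6.06% of all genes tested. Among these, sqt-3, dpy-17 and dpy-14, collagens needed for body shape and named here after their values were seen, were far more abundant than the furrow collagens. The sqt-3 gene measured 106, 151 and 132 FPKM in the THz libraries, against 319, 44.4 and 446 FPKM in the Control libraries, and the correlations of the 3 genes with the furrow profile were 0.988 to 0.991. Without Control 2, 4 of the 13 tested were called lower after THz, against 1.83% of all genes tested. They were ram-2 and these 3 (adjusted p = 0.00596 for sqt-3, 0.00821 for dpy-17 and 0.00596 for dpy-14, limma). The collagens dpy-4, dpy-5 and dpy-13, which also give dumpy worms when lost, correlated at 0.498, 0.119 and 0.581, and the adult collagen col-19 at -0.65. The ram-2 collagen gene, the member with the smallest p, averaged 10.6 ± 1.27 FPKM in THz and 27.2 ± 5.11 FPKM in Control worms (SD, n = 3 each) with no overlap between the groups. In that gene Control 2 was the lowest Control library, at 21.86 FPKM, against 32.04 FPKM in Control 1 and 27.8 FPKM in Control 3. The ratio of Control 3 to Control 2 was 1.27. The adjusted p of ram-2 was 0.372 with all 6 libraries and 0.00563 without Control 2 (limma). The rol-8 gene averaged 1.92 ± 0.586 FPKM in THz and 3.79 ± 0.453 FPKM in Control worms (adjusted p = 0.823, limma). Groups without overlap were found for 2 of the 13 tested, ram-2 and rol-8, against 13.8% of all genes tested.

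**Figure D4:**
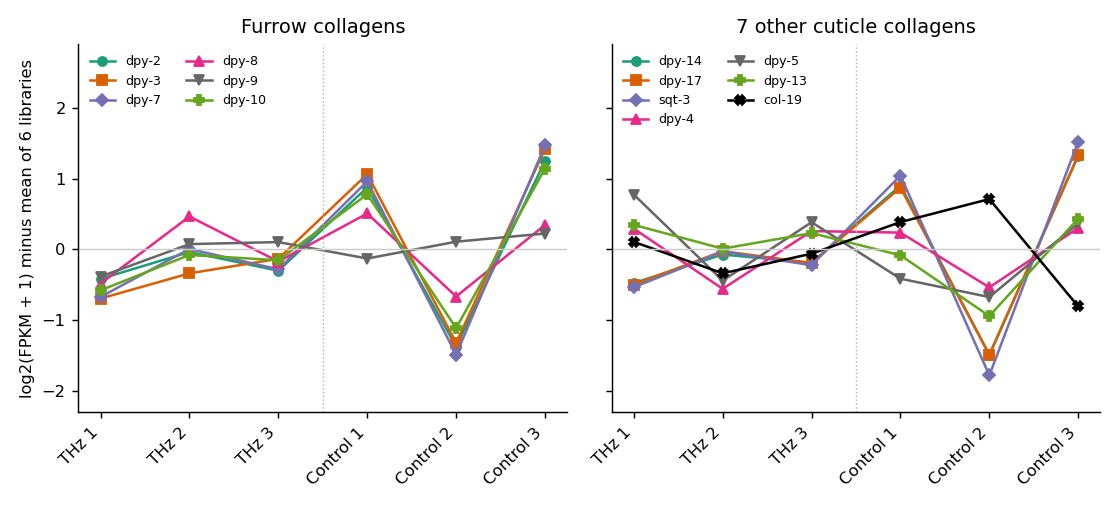
Centred log2(FPKM + 1) over the 6 libraries for the furrow collagens (left) and for 7 other cuticle collagens (right); a line joins the values of 1 gene and libraries have no order within a group. The curves of dpy-2, dpy-3, dpy-7 and dpy-10, and of dpy-14, dpy-17 and sqt-3, dip in Control 2 and peak in Control 3, while dpy-9 stays flat and col-19 goes the other way.

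No enzyme that processes or cross-links collagen passed the test with all 6 libraries. Of 11 listed, 9 were tested and 0 were called, with 6 lower and 3 higher and a median log2 difference of -0.11, which was -0.055 without Control 2. The prolyl 4-hydroxylase gene phy-2 averaged 8.03 ± 0.911 FPKM in THz and 13.99 ± 1.05 FPKM in Control worms (SD, n = 3 each). Its adjusted p was 0.612, and 0.0434 without Control 2 (limma), and it correlated with the furrow profile at 0.498. The protease gene bli-4, which cleaves procollagens, averaged 107 ± 1.42 FPKM in THz and 101 ± 2.88 FPKM in Control worms, and the dual oxidase gene bli-3, whose product cross-links tyrosines, averaged 3.21 ± 0.249 FPKM in THz and 3.79 ± 0.303 FPKM in Control worms.

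Genes that time and drive moulting were tested as a further list. All 10 transcription factor and timing genes were tested and 0 were called, with 8 lower and 2 higher and a median log2 difference of -0.15. In the fit without Control 2 it was -0.40, with 9 of the 10 lower. The Grainyhead factor gene grh-1 averaged 5.06 ± 1.03 FPKM in THz and 8.86 ± 4.67 FPKM in Control worms, and followed the furrow profile at a correlation of 0.973. The zinc finger gene blmp-1 averaged 3.25 ± 1.06 FPKM in THz and 5.16 ± 1.29 FPKM in Control worms. The epidermal GATA factor gene elt-3 averaged 14.2 ± 1.90 FPKM in THz and 16.8 ± 2.79 FPKM in Control worms. Without Control 2, 2 of the 10 were called lower after THz, against 1.83% of all genes tested. They were grh-1 (adjusted p = 0.0483) and the period homologue lin-42 (adjusted p = 0.0255, limma). The nuclear receptor gene nhr-23, needed for moulting, showed a correlation of -0.06 with the furrow profile.

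By median correlation, the moulting and apical matrix genes resembled the furrow profile most among the gene lists compared. Of 14 listed, 13 were tested and 0 were called, with 10 lower and 3 higher and a median log2 difference of -0.17. Without Control 2 the median was -0.66, with 12 of the 13 lower. A correlation of at least 0.9 with the furrow profile was found for 9 of the 13, against 6.06% of all genes tested. The median over the list was 0.956. The mlt-9 gene, needed to complete moulting, averaged 1.74 ± 0.834 FPKM in THz and 4.71 ± 3.95 FPKM in Control worms, qua-1 averaged 1.75 ± 0.488 and 3.40 ± 2.12 FPKM, and the lipoprotein receptor gene lrp-1 averaged 4.50 ± 0.392 and 5.73 ± 1.101 FPKM. Without Control 2, 3 of the 13 were called lower after THz, against 1.83% of all genes tested. They were mlt-8, mlt-9 and noah-2 (adjusted p = 0.0243, 0.0433 and 0.0434, limma).

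Genes known to be induced when furrows are lost were compared next. Of 12 listed, 11 were tested and 0 were called, with 9 lower and 2 higher and a median log2 difference of -0.28. The glycerol synthesis gene gpdh-1 measured 1.24, 1.61 and 0.920 FPKM in the THz libraries, against 3.72, 6.71 and 1.25 FPKM in the Control libraries. It was highest in Control 2, where the furrow collagens were lowest. Its THz values lay near that of Control 3, where the furrow collagens were highest. The inositol transporter gene hmit-1.1 averaged 2.895 ± 0.0502 FPKM in THz and 4.48 ± 1.55 FPKM in Control worms (adjusted p = 0.827, limma). All its THz libraries lay below the Control libraries. No overlap between the groups was found for 2 of the 11 tested, hmit-1.1 and nlp-34, against 13.8% of all genes tested. The glutathione transferase gene gst-4 measured 10.4, 12.0 and 11.9 FPKM in the THz libraries, against 12.7, 39.0 and 5.82 FPKM in the Control libraries, again highest in Control 2. The listed gene gcs-1 varied little, at 38.0, 39.7 and 36.2 FPKM in THz, against 36.7, 40.7 and 39.9 FPKM in Control libraries. Correlations with the furrow profile were -0.337 for gpdh-1, -0.384 for hmit-1.1, -0.766 for gst-4 and -0.200 for gcs-1. The median over the 11 genes tested was 0.391. Among the antimicrobial peptide genes listed, Control 2 was the lowest Control library in all but nlp-27. In nlp-27, the most abundant of them, Control 3 was the lowest Control library, with 51.4, 42.5 and 42.6 FPKM in the THz libraries, against 72.85, 57.5 and 37.3 FPKM in the Control libraries. The genes lowest in Control 2 among the controls were nlp-28, nlp-29, nlp-30, nlp-31, nlp-34, cnc-2 and cnc-4. The nlp-29 gene measured 2.58, 4.78 and 5.65 FPKM in the THz libraries, against 5.38, 3.37 and 5.35 FPKM in the Control libraries, and nlp-34 measured 1.45, 1.63 and 1.14 FPKM in the THz libraries, against 3.31, 1.69 and 5.93 FPKM in the Control libraries. The related gene nlp-31 was the 1 member called lower without Control 2 (adjusted p = 0.0335, limma), against 1.83% of all genes tested. The epidermal osmotic regulators, of which 3 of 5 were tested, had a median log2 difference of -0.06, and 0 were called. Among these, osm-11 averaged 286 ± 2.902 FPKM in THz and 311 ± 24.8 FPKM in Control worms, osm-7 averaged 4.31 ± 0.349 and 4.56 ± 0.788 FPKM, and ptr-23 averaged 6.06 ± 0.614 and 5.54 ± 1.86 FPKM.

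**Figure D5:**
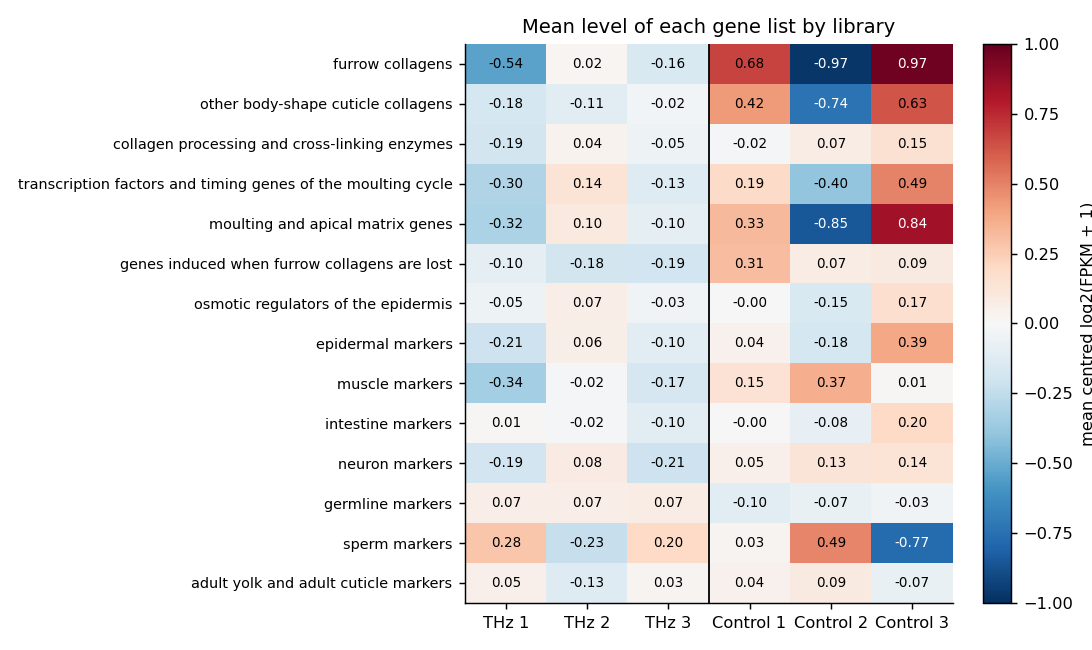
Mean of centred log2(FPKM + 1) over the tested members of each gene list in each library, THz libraries left of the line. Furrow collagens and moulting genes are lowest in Control 2 (-0.97 and -0.85) and highest in Control 3 (0.97 and 0.84), and sperm markers run the other way (0.49 and -0.77).

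Markers of other tissues moved with the libraries as well. The 8 epidermal markers summed to 198 to 238 FPKM in the THz libraries and to 194 to 308 FPKM in the Control libraries. Their sum was lowest in Control 2 and highest in Control 3. Among them vha-5 alone was highest in Control 2, at 17.23, 24.96 and 14.88 FPKM in Control 1, Control 2 and Control 3. Of the 8, 6 were tested, and their correlations with the furrow profile ran from -0.714 for vha-5 to 0.955. The 6 sperm markers summed to 18.5 to 32.4 FPKM in the THz libraries and to 11.4 to 40.2 FPKM in the Control libraries. Their sum was highest in Control 2 and lowest in Control 3. Their correlations with the furrow profile ran from -0.945 to -0.004. The value of -0.004 is that of ssp-16, which measured 3.19, 0.990 and 0.527 FPKM in Control 1, Control 2 and Control 3. The 6 muscle markers summed to 886 to 1086 FPKM in the THz libraries and to 1077 to 1527 FPKM in the Control libraries. The sum was highest in Control 2, but myo-3 alone was lowest there among the controls, at 26.0, 24.6 and 30.1 FPKM in Control 1, Control 2 and Control 3. The 5 matched intestine markers (345 to 461 and 404 to 459 FPKM), the 6 neuron markers (305 to 317 and 314 to 325 FPKM), the 6 germline markers (2267 to 2332 and 2035 to 2101 FPKM) and the 5 adult markers, yolk genes and col-19 (17037 to 18003 and 16391 to 19333 FPKM), gave these ranges of sums in the THz and the Control libraries. No matched marker of any of these tissues was listed at 0 in any library, and opt-2, a further intestine marker, was not matched by name. The part of these markers in the furrow collagen result was not tested.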

How the data were processed

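Per the labels' protocols, polyadenylated RNA of whole worms went into TruSeq v2 libraries. Build WBcel235, the aligner STAR, DESeq 1.10.1 and HTSeq 0.5.4 are listed in the submitters' processing notes, without roles. The values are FPKM, which the authors deposited as 1 table with gene lengths. Gene length times FPKM fell on whole multiples of 1 step per library, which gave the depth. With a tolerance of 0.05 reads, 88.5% to 88.9% of values above 0 per library were whole, and so were all values of the furrow collagens.

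Tests used limma 3.58.1 (R 4.3.3) on log2(FPKM + 1), with the prior variance following mean expression, two-sided, with Benjamini-Hochberg adjustment over 12174 genes that had at least 1 FPKM in at least 3 libraries. This scale understates changes of low genes. An exact permutation test of 3 against 3 libraries has a smallest p of 0.1 and was not used. The scripts were tested on simulated read counts in which no library deviated from its group. That setting is unlike these controls, so the test does not speak for the power here. The members, gene lists and rules were chosen with earlier results of these data known. From each list other than the marker lists, the 3 genes with the smallest p were named, and 8 genes by correlation with the mean furrow profile. Genes called without Control 2, nlp-27, nlp-29, gst-4 and collagens with contrasting profiles were named after their values were seen. So were gcs-1, nhr-23 and the antimicrobial peptide genes named beside nlp-27. Replicate numbers were not used to pair the samples in the main fit.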

Additional observations from a re-analysis of the deposited data

How the results depend on the processing

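Of 16 alternative settings, 14 left the number of genes called at 0 and the number of furrow collagens called at 0. Library weights called 3092 genes and 4 furrow collagens. Leaving out 1 library at a time gave 0 to 234 genes and 0 to 4 furrow collagens, and both upper values came without Control 2. The median log2 difference of the furrow collagens ran from -1.27 to -0.06 in those settings and was -1.03 with library weights. The direction was kept for dpy-2, dpy-3, dpy-7 and dpy-10 in all 16. It turned for dpy-8 with voom on recovered reads (0.018), and for dpy-9 with quantile normalization (0.007) and library weights (0.087). With quantile normalization the values of osm-7 (0.10) and nlp-29 (0.022) also turned, and with library weights that of osm-7 (0.019). Leaving out 1 library at a time gave ranges that span 0, from the lowest to the highest value: -0.49 (without Control 2) to 0.10 (without Control 1) for dpy-8, -0.24 (without Control 1) to 0.021 (without THz 1) for dpy-9, -0.081 (without Control 2) to 0.34 (without Control 3) for ptr-23, -0.13 (without Control 1) to 0.055 (without Control 3) for osm-7, -0.30 (without THz 3) to 0.14 (without THz 1) for nlp-29 and -0.91 (without Control 3) to 0.36 (without Control 2) for gst-4. From without Control 2 to without Control 3, the values ran from -1.36 to 0.048 for dpy-14, from -1.34 to 0.070 for dpy-17, from -1.54 to 0.11 for sqt-3, from -1.04 to 0.033 for lin-42, from -1.06 to 0.24 for mlt-8 and from -0.86 to 0.32 for noah-2. The mean share of dpy-9 in THz minus that in Control worms ran from -1.97 (without Control 1) to 2.93 percentage points (without Control 2), against -0.32 with all libraries. The cause was not tested. Deviations from the group means correlated at -0.01, -0.14 and 0.03 between same-numbered libraries. These values cannot show whether same-numbered libraries shared a culture or batch, and the labels do not state it. A fit with the replicate number as a block called 0 genes and 0 furrow collagens, with a median of -0.52. For dpy-8, 3 reads in Control 2 limit any comparison.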
